A study of Homo sapiens with 4 samples.

Results

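To examine the transcripts of the metalloproteases that cut matrix and cell surface proteins, and of their inhibitors, genes whose symbol is MMP, ADAM or ADAMTS with a number, or TIMP with a number, were taken from microarrays of 786-O cells. By this rule 62 of 17687 named genes on the array were chosen, 22 MMPs, 19 ADAMs, 18 ADAMTSs and 3 TIMPs, each with 1 probe set. The rule used names and no measured value. 786-O (CRL-1932) is an established line of human clear cell renal cell carcinoma. RNA came from 2 untreated dishes and from 2 dishes given 5 ng/mL MCP-1, a chemokine that attracts monocytes, for 16 h according to the array labels, while the paper's methods give a longer time for the arrays. All dishes held the same cell line, grown in RPMI medium with serum and antibiotics, and the untreated cells were of the same passage. As a model the dishes are limited to a single tumour line grown in culture.

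Matrix metalloproteases (MMPs) are zinc enzymes made as inactive precursors, and between them they cut collagens, other matrix proteins and many signalling proteins. ADAMs sit in the cell membrane, where those with an active site release (shed) growth factors, cytokines, receptors and adhesion molecules from the surface, and others act in cell adhesion. ADAMTSs are secreted and cut proteoglycans such as versican, procollagens and further matrix proteins. TIMPs bind the active site of these enzymes and block it. In renal carcinoma, MMPs have been studied mainly for invasion, and IL-1β, which the study places upstream of MCP-1, has been tied to MMP expression in this line.

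The arrays measured each gene as a log2 signal, where a step of 1 is a doubling. A gene counted as above background on an array when its signal lay over the 90th percentile of 612 negative-control probe sets on that array, which was 6.48 and 6.36 on the untreated arrays and 6.36 and 6.70 on the treated ones. The array medians were close, between 6.2 and 6.28. Signals of different probe sets depend on their probes, so no gene is ranked above another by signal. Of 8 measured markers of renal carcinoma and tubule cells, 6 were above background on all 4 arrays, among them PAX8, PAX2, VIM and KRT8, while CUBN and LRP2, receptors of the mature proximal tubule, were below it on all 4. Of 7 monocyte and macrophage markers 1 was above (CD68, which other cells also make), and PTPRC, CD14 and CSF1R were below on every array. Of 5 fibroblast markers 1 was above (COL1A2), and none of 5 endothelial markers was.

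Most of these proteases were not detected in 786-O cells. Of the 62 genes, 15 (24.2%) were above background on all 4 arrays, 2 on some arrays and 45 on none, whereas 46.7% of all 21448 probe sets tested, and 49.6% of named genes, were above it on all 4. By family, 7 of 19 ADAMs, 4 of 22 MMPs, 3 of 18 ADAMTSs and 1 of 3 TIMPs were above background on all 4 arrays. By class, 6 of 9 ADAM sheddases, 1 of 3 neural ADAMs, 1 of 2 gelatinases, 1 of 3 collagenases, 2 of 6 membrane-type MMPs, 2 of 7 proteoglycan-cleaving ADAMTSs and 1 of 7 other ADAMTSs were detected. None of 7 ADAMs of the reproductive tract, 3 stromelysins and stromelysin-like enzymes or 2 matrilysins was detected.

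**Figure D1:**
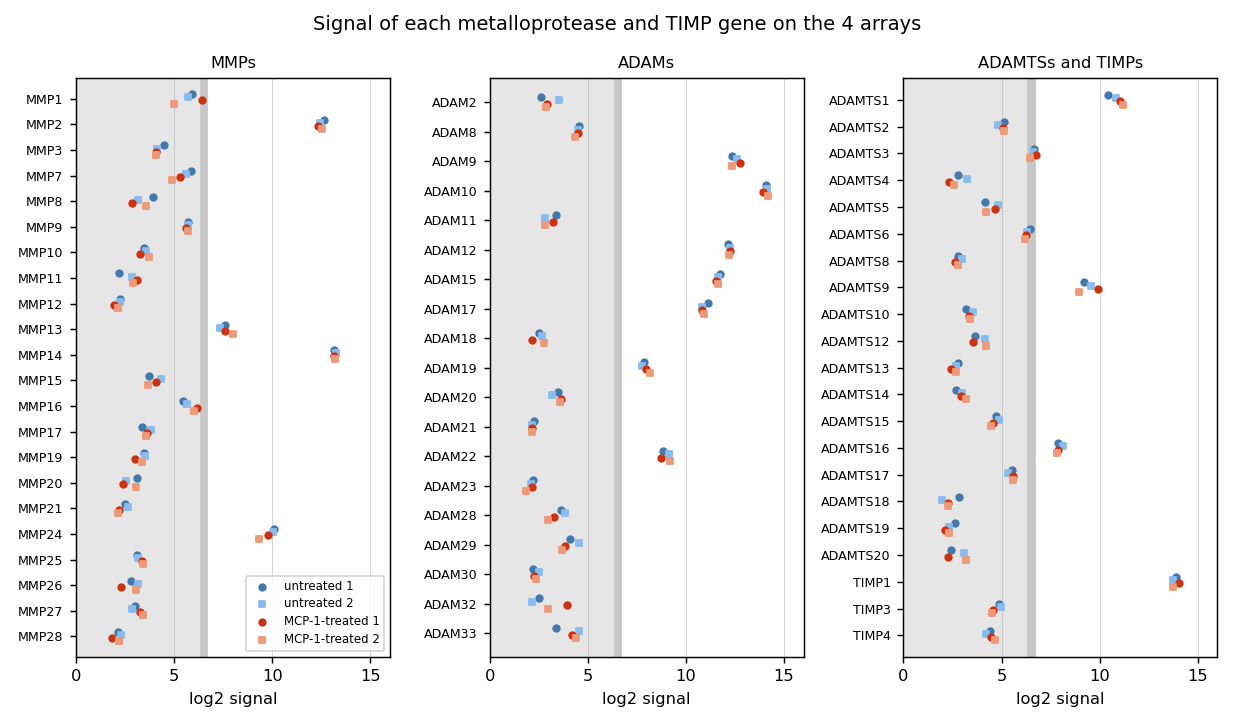
Log2 signal of the 62 genes (x axis) on each array, blue for untreated and red for MCP-1-treated cells, circles for replicate 1 and squares for replicate 2. The light grey area lies below the 90th percentile of negative controls on every array, and the dark band spans that percentile over the 4 arrays (6.36 to 6.70). In 15 genes all 4 points lie to the right of the band, and in nearly all of these the 4 points lie close together.

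The promoters of detected genes held more CpG dinucleotides at the median than those of undetected genes. CpG-rich promoters belong to many genes that are active in most tissues. A RefSeq promoter of 300 bases (250 before and 50 after the annotated start, GRCh38.p14) was matched by symbol for 37 of the 62 genes. The detected genes ADAM9, ADAMTS1, ADAMTS9, ADAMTS16, MMP2 and MMP13 had no matched promoter. Nor had MMP1, MMP3 and MMP9, among others. Of the matched promoters, 5 are shown over the 150 bases before the start, 3 of detected genes and 2 of undetected genes. Every CG dinucleotide is in capitals.
ADAM10 (chr15:58749708-58749857, minus strand): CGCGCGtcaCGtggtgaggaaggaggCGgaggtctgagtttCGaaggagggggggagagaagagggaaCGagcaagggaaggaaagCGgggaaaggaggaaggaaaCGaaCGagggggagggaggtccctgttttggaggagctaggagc
ADAM17 (chr2:9555831-9555980, minus strand): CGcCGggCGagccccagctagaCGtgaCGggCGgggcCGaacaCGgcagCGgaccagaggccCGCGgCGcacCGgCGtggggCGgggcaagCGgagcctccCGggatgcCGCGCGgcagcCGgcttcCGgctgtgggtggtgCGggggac
MMP14 (chr14:22836435-22836584, plus strand): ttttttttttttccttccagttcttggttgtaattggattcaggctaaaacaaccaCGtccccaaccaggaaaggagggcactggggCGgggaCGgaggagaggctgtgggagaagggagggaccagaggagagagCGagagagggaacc
MMP7 (chr11:102530748-102530897, minus strand): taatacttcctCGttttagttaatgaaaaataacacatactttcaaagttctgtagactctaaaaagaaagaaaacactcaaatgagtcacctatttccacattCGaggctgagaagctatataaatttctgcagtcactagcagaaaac
MMP10 (chr11:102780629-102780778, minus strand): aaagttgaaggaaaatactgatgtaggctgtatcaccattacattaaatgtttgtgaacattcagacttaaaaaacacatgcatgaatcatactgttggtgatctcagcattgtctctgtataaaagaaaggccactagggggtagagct
In these windows ADAM17 held 23 CG, ADAM10 held 10 and MMP14 held 4, whereas MMP7 held 2 and MMP10 held 0. These genes were picked by hand and do not stand for their groups. Over the whole 300 bases MMP7 and MMP10 held 4 and 2 CG, against a median of 18 for undetected genes. MMP7 and MMP10 each carried a match to the AP-1 element (letters TGANTCA, the same on both strands) that began 67 bases before the start, TGAGTCA in MMP7 and TGAATCA in MMP10. Over the whole 300 bases, the 9 promoters of genes above background on all 4 arrays held 10 to 44 CG with a median of 32, and the 27 of genes below it on all 4 held 0 to 47 with a median of 18. The ranges overlapped, and CG-rich promoters such as that of ADAMTS2 (47 CG) also belonged to undetected genes. Among all named array genes the corresponding medians were 27 for 7409 genes above background and 11 for 6333 below, and over all 27305 promoters the median was 14.

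The AP-1 element was found in 0 of the 9 detected and 4 of the 27 undetected promoters (ADAMTS12, MMP7, MMP10 and MMP20), against 7.76% of all promoters, 4.24% of those of detected named genes and 7.64% of those of undetected ones. The letters TATAAA, searched on both strands, were in 0 of 9 and 8 of 27, against 12% of all, 5.17% of detected and 14.6% of undetected. The letters GGGCGG, also on both strands, were in 8 of 9 and 15 of 27, against 44.6% of all, 71.9% of detected and 44.2% of undetected. These are letter matches in a fixed window, given as a description of few promoters. Detected genes with no matched promoter, such as MMP2 and MMP13, were not searched, so these counts do not describe all detected genes.

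**Figure D2:**
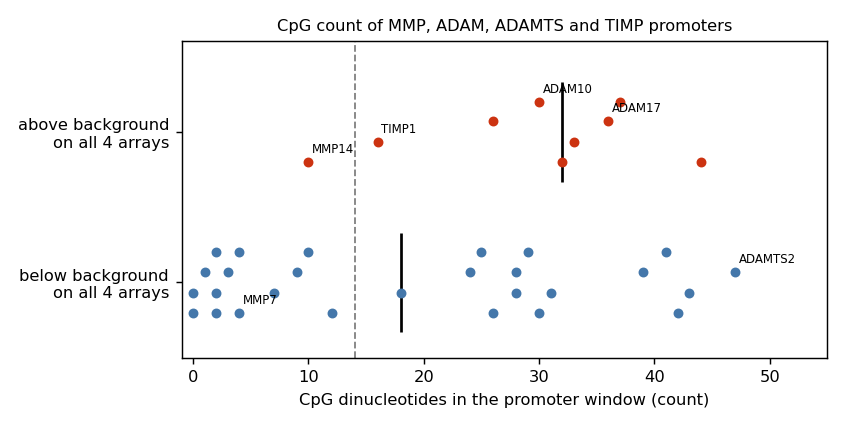
CG dinucleotides counted in the 300-base promoter (x axis), 1 point per gene with a matched promoter. Of these genes, 9 were above background on all 4 arrays (red) and 27 below on all 4 (blue). Vertical offsets only separate the points. Black bars are the medians (32 and 18) and the dashed line is the median of all promoters (14), and the 2 groups overlap over most of their range.

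No metalloprotease or TIMP gene passed the test between MCP-1-treated and untreated cells, and most detected ones lay close to 0. In limma, with group and replicate number as terms, none of the 62 genes passed an adjusted p of 0.05, against 0.0326% (7) of all probe sets. By the methods' t-test, at p under 0.05 and a fold of at least 2, 0 of the 62 passed, against 0.0932% of all probe sets. Among the 15 genes detected on all 4 arrays the log2 difference, treated minus untreated, ran from -0.49 for MMP24 to 0.48 for ADAMTS1, and for 11 it was smaller than 0.15 in size. Of the 15, the treated mean was above the untreated one in 7 and under it in 8. The median of the 15 was -0.02. It was 0.00684 over all probe sets above background on all 4 arrays and 0.0126 over all probe sets. The 95% intervals of these differences ran no further than -1.05 and 1.02, so that changes of over 2.07-fold lay outside all of them. In bulk RNA, fewer cells that make a transcript and less transcript per cell cannot be told apart.

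Among the sheddases, ADAM10, which starts the cleavage of Notch receptors and many adhesion molecules, had signals of 14.09 and 14.15 in untreated and 13.90 and 14.19 in treated cells. The groups overlapped, and the log2 difference was -0.07 (standard error 0.25, limma adjusted p = 1.0). ADAM17, the enzyme that releases TNF and several ligands of the EGF receptor, gave 11.11 and 10.81 untreated against 10.83 and 10.92 treated. Its groups overlapped as well, with a difference of -0.08 and a 95% interval from -0.64 to 0.47. ADAM9, a further surface sheddase, gave 12.32 and 12.59 untreated against 12.73 and 12.34 treated, and its 2 replicate pairs moved in opposite directions (0.41 and -0.25). ADAM12, which cuts insulin-like growth factor binding proteins, was the steadiest of the group, at 12.16 and 12.22 untreated and 12.22 and 12.17 treated (difference 0.00, interval -0.54 to 0.54).

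ADAM15 and ADAM19 were the detected sheddases whose groups did not overlap. ADAM15, an ADAM with an integrin-binding motif, gave 11.75 and 11.65 untreated and 11.54 and 11.64 treated, with the treated arrays lower by 0.11 on average and by only 0.01 in the second pair. ADAM19, an enzyme of heart and nerve development in mice, gave 7.87 and 7.74 untreated and 7.98 and 8.17 treated (difference 0.27, interval -0.28 to 0.82). Like ADAMTS16, ADAM19 was over the 95th percentile of negative controls on 3 arrays only. ADAM8, ADAM28 and ADAM33, the other sheddases listed, were below background on all 4 arrays. ADAM22, a receptor for the secreted protein LGI1 in the nervous system with no protease activity, was detected, at 8.84 and 9.13 untreated and 8.72 and 9.21 treated, and its groups overlapped.

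MMP2 and MMP14 work together in the textbook picture, in which MMP14 on the membrane, with TIMP2 as a bridge, converts pro-MMP2 to the active gelatinase. MMP14 gave 13.17 and 13.24 untreated and 13.17 and 13.18 treated, and the difference was -0.03 (interval -0.56 to 0.51). MMP2 gave 12.65 and 12.41 untreated and 12.35 and 12.51 treated (difference -0.10, interval -0.65 to 0.46). Both were far above background on every array and neither separated the groups. TIMP2 was not analysed here, since the gene table used names no probe set for it. MMP9, the other gelatinase, had signals of 5.71 and 5.71 untreated and 5.59 and 5.73 treated, below the 90th and above the 75th percentile of negative controls on every array.

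MMP24, a membrane-type MMP known mainly from neurons, had the lowest difference of the detected genes. Its signals were 10.07 and 10.04 in untreated and 9.78 and 9.35 in treated cells, so both treated arrays lay under both untreated ones. The difference was -0.49 (standard error 0.25, interval -1.05 to 0.06), a 1.41-fold lower treated mean, at an unadjusted limma p of 0.0765 and an adjusted p of 1.0. ADAMTS1, an inflammation-induced protease that cuts versican and aggrecan, had the highest. Its signals were 10.43 and 10.82 in untreated and 11.02 and 11.21 in treated cells, with both treated arrays over both untreated ones, a difference of 0.48 (standard error 0.24, interval -0.06 to 1.02) or 1.40-fold, at an unadjusted limma p of 0.0747 and an adjusted p of 1.0. With each array left out, the difference ran from -0.71 (without MCP-1-treated replicate 1) to -0.28 (without MCP-1-treated replicate 2) for MMP24, and from 0.29 (without untreated replicate 1) to 0.68 (without untreated replicate 2) for ADAMTS1. The replicate pairs differed by -0.29 and -0.69 for MMP24 and by 0.58 and 0.38 for ADAMTS1. Their shared sign adds nothing, since groups that do not overlap give the same sign under any pairing.

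Groups did not overlap in 4 of the 15 detected genes, ADAM19 and ADAMTS1 higher and ADAM15 and MMP24 lower in treated cells. Among all probe sets above background on all 4 arrays, 16.4% did not overlap with treated cells higher and 16.3% with treated cells lower. In these same 4 genes the difference of the means was larger than the gap between replicates in either group. With 2 arrays against 2, an exact permutation test of a single gene cannot give a two-sided p under 0.333.

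**Figure D3:**
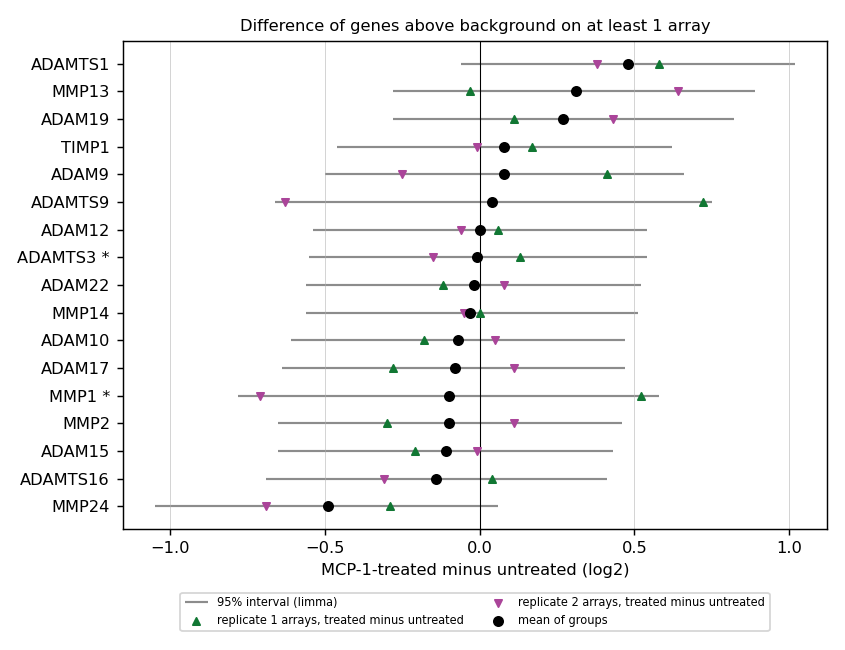
Log2 difference, MCP-1-treated minus untreated (x axis), of the 17 genes above background on at least 1 array; black points are differences of group means, grey lines their 95% intervals from limma, green and purple triangles the differences within replicates 1 and 2. An asterisk marks MMP1 and ADAMTS3, which were above background on some arrays only. Every interval spans 0. The pairs lie on opposite sides of 0 in 10 of the 15 genes above background on all 4 arrays, ADAMTS9 among them, and in MMP1 and ADAMTS3.

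ADAMTS9, which cuts versican and aggrecan, was the detected gene with the widest gap between replicates. Its untreated signals of 9.18 and 9.55 lay between the treated ones of 9.89 and 8.92, so that the pairs differed by 0.72 and -0.63 and the means by 0.04 (interval -0.66 to 0.75). Of all probe sets above background on all 4 arrays, 1.6% had a gap between the treated arrays at least as wide. MMP1, the interstitial collagenase, split the treated arrays in the same direction. It gave 5.90 and 5.70 untreated and 6.42 and 4.99 treated, above background on the first treated array only, and 0.49% of all probe sets tested had a treated gap at least as wide. ADAMTS9 had the widest treated gap of the detected genes and MMP1 the widest of all 62. A share counted over single probe sets is therefore no test of either. For neither gene do these arrays settle a direction.

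MMP13, the collagenase of cartilage and bone, was above background on all 4 arrays, at 7.59 and 7.36 untreated and 7.57 and 8.0 treated (difference 0.31, interval -0.28 to 0.89). It was under the 95th percentile of negative controls on 2 of them. In the RefSeq annotation MMP13 stands at the end of an unbroken run of 9 MMP genes on chromosome 11 (MMP7, MMP20, MMP27, MMP8, MMP10, MMP1, MMP3, MMP12, MMP13), and it was the 1 gene of the 9 above background on all 4 arrays. Of its 8 neighbours in the run, MMP1 was above on 1 array and the other 7 on none.

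ADAMTS16 and ADAMTS3 were near the limit of detection. ADAMTS16, a protease that has been tied to blood pressure in rats, gave 7.85 and 8.15 untreated and 7.89 and 7.84 treated (difference -0.14, interval -0.69 to 0.41). ADAMTS3, which removes the N-propeptide of procollagen and helps to activate VEGF-C, gave 6.64 and 6.61 untreated and 6.77 and 6.46 treated, above background on 3 of the 4 arrays. Neither separated the groups.

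TIMP1, a secreted inhibitor of most MMPs, was the 1 detected gene of the 3 TIMPs measured. It gave 13.90 and 13.71 untreated and 14.06 and 13.71 treated, with a log2 difference of -0.01 between the second replicates and of 0.08 between the means (interval -0.46 to 0.62). TIMP3, the inhibitor that binds matrix and also blocks ADAM17 and several ADAMTSs, was below background on all 4 arrays, at 4.85 and 4.96 untreated and 4.54 and 4.53 treated. TIMP4 was also below it throughout, at 4.43 and 4.19 untreated and 4.48 and 4.67 treated. The groups of TIMP3 and TIMP4 did not overlap, but no fold is given for signals below background.

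The 45 genes below background on all 4 arrays had signals from 1.82 to 6.47. They included MMP3, MMP7, MMP8, MMP10, MMP11 and MMP12 among secreted MMPs, MMP15, MMP16, MMP17 and MMP25 among membrane-type MMPs, and ADAMTS2, ADAMTS4, ADAMTS5 and ADAMTS13 among ADAMTSs. At an unadjusted limma p under 0.05, 4 of the 62 genes (6.45%) differed, against 4.95% of all probe sets, 1 higher (2.59% of all probe sets) and 3 lower (2.36%). All 4 were below background on every array. Of the 15 detected genes 0 did, against 2.3% of detected probe sets. ADAM32, an ADAM of the testis, gave 2.51 and 2.13 untreated and 3.92 and 2.99 treated (limma adjusted p = 0.541), and MMP7, the matrilysin, gave 5.88 and 5.62 untreated and 5.28 and 4.91 treated (limma adjusted p = 0.960). ADAM28, an ADAM of lymphocytes and epididymis, gave 3.64 and 3.85 untreated and 3.28 and 2.99 treated, and ADAMTS4, an aggrecan-cleaving enzyme, 2.78 and 3.26 untreated and 2.33 and 2.56 treated (limma adjusted p of 0.971 and 0.985). All treated values lay on 1 side of the untreated ones in these 4 genes. All were below the 90th percentile of negative controls, so they are not read as expression. MMP7 was above the 75th percentile on 3 arrays, and ADAM32, ADAM28 and ADAMTS4 were above it on none.

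Over all 62 genes the treated mean was lower for 44 and higher for 18, with a median log2 difference of -0.0669. The lower share was 71.0%, against 47.7% of all probe sets. It came mostly from undetected genes, of which 34 of 45 had a lower treated mean, against 46.4% of all 10625 probe sets below background on all 4 arrays. By replicate the median was -0.0967 in the first pair and -0.0212 in the second. Genes on 1 array are not independent, and only 2 arrays a group bear on this count. The pairs follow replicate numbers, which nothing shows to pair the arrays.

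The partners of these proteases, taken from textbook lists, were measured on the same arrays. Of 91 measured entries none passed the adjusted threshold in limma, and 46 were above background on all 4 arrays, against 49.6% of named genes. Among other inhibitors, RECK, a membrane-anchored inhibitor of MMPs, had a difference of -0.06, TFPI2, a secreted inhibitor of serine proteases that protects the matrix, of 0.14, and SPOCK1, a matrix proteoglycan, of -0.03, and these 3 of 9 were detected. Of the convertases and the plasminogen system, a list that holds activators of the precursors and also inhibitors of that system such as SERPINE2, 7 of 9 were detected, with FURIN at 0.13, PLAU, the gene of urokinase, at -0.20 and its receptor PLAUR at -0.08. RHBDF2, the gene of iRhom2, which carries ADAM17 to the cell surface, had a difference of -0.19, and TSPAN5 and TSPAN14, tetraspanins that carry ADAM10, of 0.22 and 0.10. BSG, the gene of the MMP inducer EMMPRIN, gave 16.32 and 16.32 untreated and 16.17 and 16.12 treated, a difference of -0.18 that did not pass the test.

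Among 28 measured substrates of sheddases 17 were detected, and VCAM1, an adhesion molecule that ADAM17 can release, stood lowest. VCAM1 gave 12.19 and 12.25 untreated and 11.18 and 11.48 treated, with both treated arrays under both untreated ones. Its difference was -0.90 (adjusted p = 0.736 from limma), and limma's adjusted p ranged from 0.00119 with a trended and robust variance prior to 1.0 over the alternatives tried. EREG, an EGF receptor ligand released by ADAM17, gave 11.48 and 11.49 untreated and 11.01 and 11.18 treated (difference -0.38, limma adjusted p = 1.0). The ligands TGFA, HBEGF and NRG1 had differences of -0.13, -0.05 and -0.02. NOTCH2 and CDH2, substrates of ADAM10, had differences of -0.08 and 0.14, and HAVCR1, the kidney injury molecule KIM-1, which is shed into urine, 0.14.

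Of 17 measured matrix substrates 6 were detected, and none differed at an unadjusted p under 0.05. VCAN, the gene of versican, gave 14.43 and 14.64 untreated and 14.48 and 14.69 treated, and FN1, fibronectin, 13.94 and 13.97 untreated and 13.93 and 13.89 treated. Both sets of values lay close together. HSPG2, the basement membrane proteoglycan perlecan, had the lowest difference of the list, at -0.34, with both treated signals (11.65 and 11.37) under both untreated ones (11.81 and 11.90). Among 14 relatives, which include the ADAMTSL proteins that lack a protease domain, 3 were detected, with BMP1, which removes the C-propeptide of procollagens, at 0.12. Over the 91 partner entries an unadjusted limma p under 0.05 was found for 1 gene higher, ADAMTSL4, against 2.59% of all probe sets, and for 2 lower, VCAM1 and TSPAN15, against 2.36%, and ADAMTSL4 and TSPAN15 were below background on all 4 arrays.

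**Figure D4:**
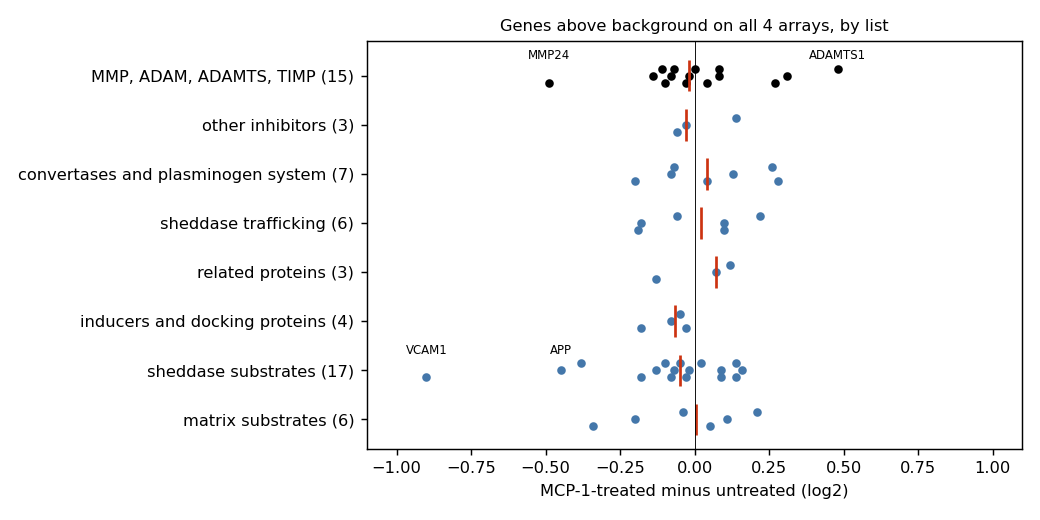
Log2 difference, MCP-1-treated minus untreated (x axis), of each gene above background on all 4 arrays, with the 15 proteases and TIMPs in black and partner genes by list in blue; red bars are list medians, numbers in brackets count genes, and vertical offsets only separate points. Most points lie close to 0, with VCAM1 at -0.90 and MMP24 at -0.49 on the lower side and ADAMTS1 at 0.48 on the higher.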

How the data were processed

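The authors hybridized RNA of each dish to 1 Clariom S array and deposited log2 signals from Affymetrix Expression Console 1.4, normalized with SST (Signal Space Transformation) and RMA (robust multiarray averaging). These steps, background correction and probe summary included, were taken as deposited, and no detection calls came with the values. The array's genome build is not given in the sources used here. The table has 24351 probe sets, of which 21448 were tested and 2903 are controls. Symbols came from the platform's gene table, and all 62 matched RefSeq. A further 7 listed symbols, TIMP2 among them, were not analysed here.

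The fit used limma 3.58.1 (R 4.3.3) with terms for treatment and for replicate number, after the paired test of the methods, and Benjamini-Hochberg adjustment over every probe set tested. This leaves 1 residual degree of freedom and a prior of 9.60. Nothing shows that replicate numbers pair the arrays (deviations from group means correlated at -0.0466 between arrays of the same number). The labels call the treated arrays biological replicates and the methods name duplicate dishes, so the replicates are dishes of 1 cell line. With 1 residual degree of freedom against a prior of 9.60, each p-value rests mostly on a variance pooled over all probe sets. The spread of a gene's own arrays enters it only in part. The number of arrays limits the precision.

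The genes and lists were chosen with earlier results of these data known. Named genes are those above background on any array, at an unadjusted p under 0.05 or a fold of at least 1.5, the TIMPs, and partner genes at an unadjusted p under 0.05. Other genes are named to illustrate their lists and were picked once their values had been seen. Alternatives were no replicate block, centring, quantile normalization, a filter on dim probe sets, another variance prior, a single probe set for each gene, arrays left out in turn, the methods' t-test, and other detection percentiles. The fit was also run on simulated arrays with independent noise and no replicate effect, so that run cannot test the pairing. Python 3.11.15 made the tables, and matplotlib 3.10.9 the figures.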

Additional observations from a re-analysis of the deposited data

How the results depend on the processing

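No MMP, ADAM, ADAMTS or TIMP gene passed an adjusted p of 0.05 in any limma setting tried (lowest adjusted p 0.0940, ADAM32 with a trended and robust variance prior), and none passed the methods' t-test at p under 0.05 with a fold of 2 or of 1.5. The count over all probe sets, 7, was 0 with no replicate block, 0 after centring, 0 after quantile normalization, 49 without dim probe sets, 69 with the trended and robust prior, and from 0 to 0 with each array left out, fitted with no block. By the methods' t-test 20 probe sets passed with a fold of 2 and 123 with a fold of 1.5. The cause of these shifts was not tested. At an unadjusted p under 0.05, 4 genes became 2 without dim probe sets (MMP24 and ADAMTS1) and 1 by the methods' t-test. The filter on dim probe sets uses the mean signal, and it removed all 4 genes of the main count. The trended prior called 1 partner gene, VCAM1, where the main count was 0. At the 95th percentile of negative controls 12 genes were detected on all 4 arrays, at the 75th 20, and 15 to 16 with an array left out.

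Of 23 named genes, 11 kept their direction with each array left out. This was fixed in advance for all of the 11 except MMP13. Their groups do not overlap, and leaving out 1 array cannot reverse such groups. The other 12 changed sign within these ranges of the log2 difference: ADAM9 from -0.11 to 0.27, ADAM10 from -0.21 to 0.08, ADAM12 from -0.03 to 0.03, ADAM17 from -0.23 to 0.07, ADAM22 from -0.26 to 0.22, ADAMTS3 from -0.17 to 0.15, ADAMTS9 from -0.44 to 0.53, ADAMTS16 from -0.29 to 0.01, MMP1 from -0.81 to 0.62, MMP2 from -0.22 to 0.02, MMP14 from -0.06 to 0.01 and TIMP1 from -0.10 to 0.26. ADAM12 was also at -0.01 after centring, and the other 22 kept their direction in every setting that used all 4 arrays. In this balanced design, leaving out the replicate block cannot change a difference of means, and MMP24 is at -0.49 in both fits by construction.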

Other observations

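APP, the amyloid precursor protein and a substrate of ADAM10, gave log2 signals of 14.90 and 15.19 in untreated cells and 15.25 and 13.95 in treated cells. The second treated array lay below the other 3, as it did for ADAMTS9 and MMP1, and the difference of the means was -0.45 (limma adjusted p = 1.0). Of probe sets above background on all 4 arrays, 0.36% had a gap between the treated arrays at least as wide. ITGAV, the integrin subunit that with ITGB3 can dock MMP2 on the cell, gave 12.19 and 12.48 untreated and 12.72 and 11.89 treated, with the second treated array again lowest. Other detected partner genes went the other way, with the second treated array highest. NOTCH1 gave 7.86 and 7.53 untreated and 7.37 and 8.2 treated, a treated gap as wide as that of ITGAV (0.83). TSPAN17 gave 10.96 and 10.76 untreated and 10.62 and 11.29 treated. All these genes were chosen after their values were seen, so no shared shift of the second treated array is read from them.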
